A study of Mus musculus with 4 samples.

Results

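Alveolar macrophages are the resident phagocytes of the airspaces, and 10 genes by which they are usually recognized in the mouse lung were followed here in metastasis-bearing lungs: Chil3, Marco, Siglecf, Ear1, Ear2, Fabp4, Fabp1, Pparg, Krt79 and Itgax. The members were the rows of the count table that carry these gene names, 10 of 56748 genes, and each name matched 1 row. Bulk RNA sequencing of the lungs was compared between 2 saline samples and 2 ADC/cmLumiOpto samples from female BALB/cJ mice, 7 weeks of age, that had all received 2000000 4T1-FLuc cells through the tail vein. 4T1-FLuc is a mouse triple-negative breast cancer (TNBC) line that expresses firefly luciferase and seeds metastases in the lung. The treated mice had received an antibody-drug conjugate (ADC) of an anti-CD276 antibody with the microtubule poison mertansine (DM1), together with cmLumiOpto. This gene therapy, carried by antibody-tagged exosome-associated AAV, puts a light-gated channel driven by a cfos promoter into cancer mitochondria, which lose their membrane potential when the substrate ViviRen makes light in the cell. The labels of the samples and the methods of the study differ on the ADC dose (16 against 8 mg/kg), on the control (PBS against saline), on the RNA extraction kit, on the abbreviation Olap, which only the labels add to the treatment, and on the material, which is tumor cells harvested from the lungs after 3 weeks in the labels and dissociated lung tissue in the methods. The methods call the samples biological and give more of them per group than the 2 per group analyzed here, and neither source says that each came from a separate mouse, so p-values measure only the spread between these samples.

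Total counts per sample ranged from 15263375 to 19675436. Levels are given as CPM, read counts scaled to library size after TMM normalization, and the floor of 3 counts, which covers counting error only, was 0.146 to 0.202 CPM. Values are written below in the order saline replicates 1 and 2, then ADC/cmLumiOpto replicates 1 and 2, and replicate numbers only name samples. Although the labels name tumor cells, Sftpc, the surfactant protein of alveolar type 2 cells of normal lung, was abundant in all samples. It was at 1017 and 174 CPM with saline and 4321 and 3426 CPM with treatment. Other genes of normal lung were scarce in saline replicate 2, such as Scgb3a2 at 0.741 CPM and Lamp3 at 3.77 CPM. Krt18, a keratin of the carcinoma and of other epithelia, was at 906, 1005, 790 and 820 CPM. Saline replicate 2 stood apart by the lowest values of many lung and immune genes, and each member that this sample moves is therefore given with and without it. No sequencing batch or date was given.

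In the airspace, the cytokine GM-CSF, the growth factor TGF-beta and the nuclear receptor PPAR-gamma drive fetal monocytes to become alveolar macrophages, which then renew themselves locally and clear surfactant, dust and microbes. Their unusual surface (SIGLEC-F, CD11c and the scavenger receptor MARCO) and their lipid-handling genes set them apart from the interstitial macrophages of the lung. Lung metastases also draw in monocyte-derived macrophages, neutrophils and dendritic cells, several of which share single genes with this list.

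Ear1 and Ear2 were the members in which the samples of a group lay closest together on the log2 scale while the groups did not overlap. They encode eosinophil-associated ribonucleases of a rodent-specific, much duplicated family. Their coding sequences are shown because transcript sequences decide how well reads can be told apart between them. The promoter windows, given first, are shown only as a description. In RefSeq (GRCm38.p6), the promoter windows from before to just after the start sites (300 bases) lie at chr14:43819590-43819889 on the minus strand for Ear1 and at chr14:44102404-44102703 on the plus strand for Ear2. The windows were identical in 294 of 303 aligned columns (97%), and the capitals mark the 3 mismatched and 6 gapped columns, 5′ to 3′ on the strand of the gene.

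Ear1 promoter: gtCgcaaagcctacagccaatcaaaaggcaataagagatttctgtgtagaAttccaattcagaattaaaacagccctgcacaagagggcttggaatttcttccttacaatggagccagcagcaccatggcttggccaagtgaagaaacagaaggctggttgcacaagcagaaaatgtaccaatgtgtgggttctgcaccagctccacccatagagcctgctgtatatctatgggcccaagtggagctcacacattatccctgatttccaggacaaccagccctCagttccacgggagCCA

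Ear2 promoter: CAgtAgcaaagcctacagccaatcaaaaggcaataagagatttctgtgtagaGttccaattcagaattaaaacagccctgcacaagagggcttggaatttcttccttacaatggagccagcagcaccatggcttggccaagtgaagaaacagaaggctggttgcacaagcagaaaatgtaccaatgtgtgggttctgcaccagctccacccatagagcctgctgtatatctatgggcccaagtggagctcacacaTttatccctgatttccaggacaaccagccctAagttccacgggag

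The reading frames were also close in sequence. Over the whole coding sequence, Ear1 (468 bases) and Ear2 (471 bases) were identical in 95.3% of the aligned columns of the GENCODE vM21 transcripts Ear1-201 and Ear2-201. The first 240 coding bases of each follow, with the 9 differing bases in capitals.

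Ear1 coding start: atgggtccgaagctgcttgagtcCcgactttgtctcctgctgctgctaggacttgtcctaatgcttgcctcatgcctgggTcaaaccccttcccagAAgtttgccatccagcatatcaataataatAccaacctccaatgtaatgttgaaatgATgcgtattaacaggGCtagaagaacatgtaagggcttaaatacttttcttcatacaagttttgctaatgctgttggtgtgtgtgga

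Ear2 coding start: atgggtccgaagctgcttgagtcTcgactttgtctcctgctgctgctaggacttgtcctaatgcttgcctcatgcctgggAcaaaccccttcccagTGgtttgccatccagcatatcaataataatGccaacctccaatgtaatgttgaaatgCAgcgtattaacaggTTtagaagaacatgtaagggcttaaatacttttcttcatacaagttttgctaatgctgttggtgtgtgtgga

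Another gene of the family, Ear10, was identical to Ear2 in 97% and to Ear1 in 94.7% of coding columns. Of all 50-base windows in the transcript of Ear1, 57.4% occurred unchanged in a transcript of another gene, and 41.5% did for Ear2. The genes that shared them were Ear6, Ear10 and the pseudogenes Ear-ps2 and Ear-ps9, and Ear1 and Ear2 with each other. For 100-base windows the shares were 23.9% for Ear1, with Ear10 and Ear-ps9, and 13.9% for Ear2, with Ear10 and Ear-ps2, and none was shared between Ear1 and Ear2. Chil3 shared 29.4% of its 50-base windows, with Chil4 and Gm6522, and Itgax 9.61%, with Itgad. Siglecf shared 0.235% and the other 5 members none. How reads that fit several genes were counted is not given in the sources used here, so the split of short reads between Ear1 and Ear2, and of longer ones between these genes and Ear10 or the pseudogenes, is uncertain.

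Promoter entries were found for 9 of the 10 members, with 3 entries for Pparg. Short motifs of regulators of the lineage were searched on both strands of these windows. A member was counted if any of its windows held the motif, whereas the shares of all promoters count single windows. GAGGAA, the core bound by the myeloid factor PU.1, occurred in the windows of Marco, Siglecf, Fabp1 and Pparg, 4 of 9, and in 28.3% of all 32851 promoter windows. AGGTCA, a half-site of nuclear receptors such as PPAR-gamma, occurred for Fabp1 and Pparg, 2 of 9, and in 16.3% of all windows. Neither motif was in the Ear1 or Ear2 window, which says only that these letters are absent there, and a match is a description, not a binding site.

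Across 15320 genes that passed the expression filter, the quasi-likelihood (QL) test of edgeR, adjusted by Benjamini-Hochberg over all of them, called 0 genes at 0.05 (0% of those tested), and so 0 members. Of the 10 members, 8 passed the filter, whereas Fabp1 and Krt79 did not and were not tested. Among the 8, 5 had a log2 fold change above 0 and 3 below. Ear1, Ear2 and Itgax were higher in both treated samples than in both saline samples, 3 of 8, where 28.1% of all tested genes were so. No tested member was lower in both treated samples, against 28.8% of all tested genes. Ear1 alone had an unadjusted p under 0.05, in the direction of higher values, which 11% of tested genes had and 12.2% had in the direction of lower values. The median log2 fold change of the 8 members was 0.37, and that of all tested genes was 0.028. In bulk samples, fewer cells of a type and less RNA per cell cannot be told apart, and this holds for every level below.

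**Figure D1:**
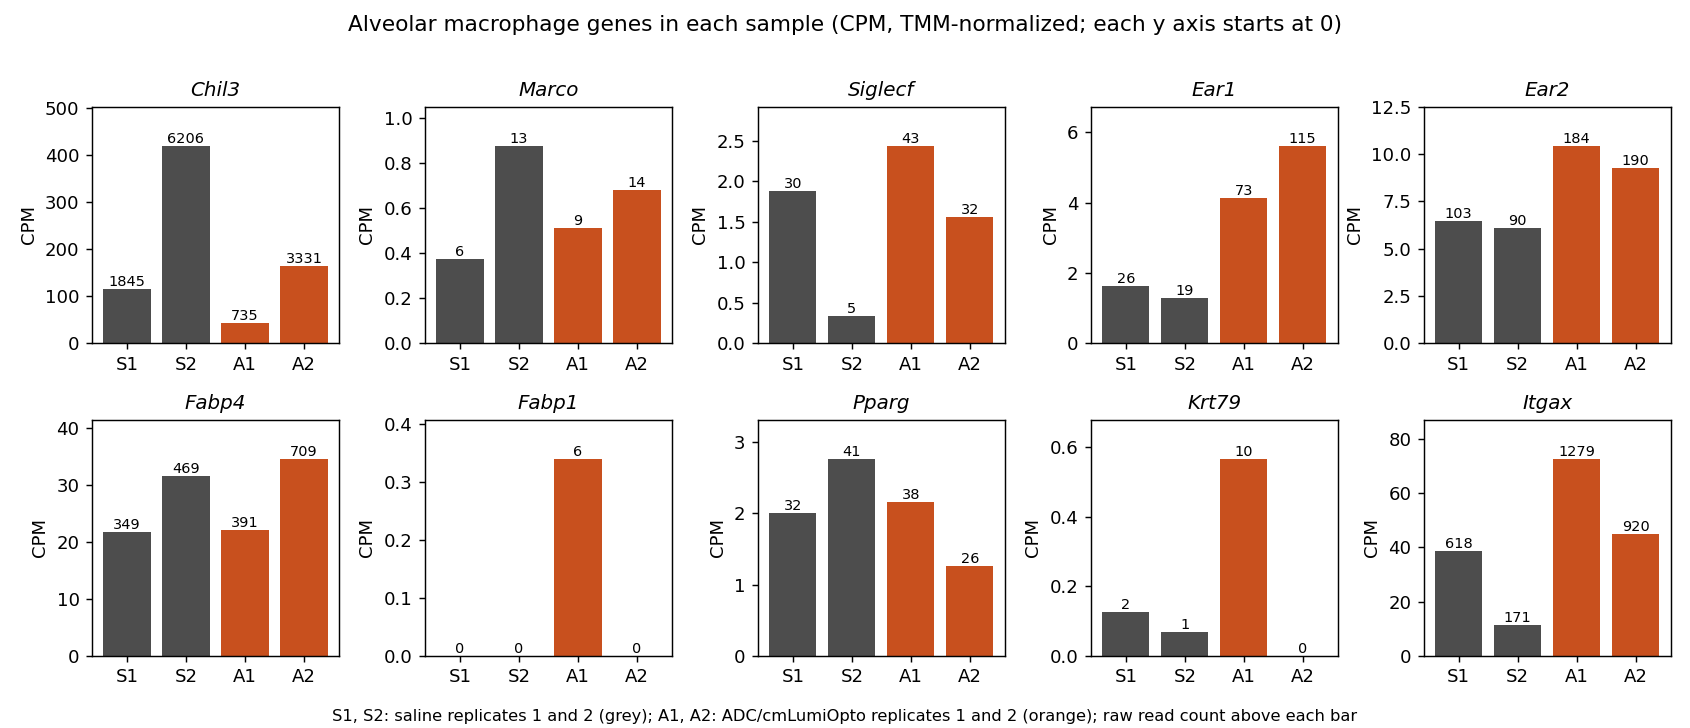
Each panel plots 1 gene, with a bar for the CPM (TMM-normalized, linear axis from 0) of each of the 4 samples, grey for saline and orange for ADC/cmLumiOpto, and the raw count above the bar. Ear1, Ear2 and Itgax have both orange bars above both grey bars, Chil3 is highest in saline replicate 2 at 418 CPM, and Fabp1 has counts in 1 sample only.

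Chil3, Ear1 and Ear2 encode secreted products. Chil3 (ENSMUSG00000040809, chromosome 3 at 106054870-106074880, positions here and below being those listed with the counts, whose build the table does not name), which encodes the chitinase-like lectin Ym1 of alveolar macrophages and other myeloid cells, was at 115 and 418 CPM in the saline samples and at 41.7 and 162 CPM in the treated samples. The counts behind these values were 1845, 6206, 735 and 3331. Saline replicate 2 was highest and ADC/cmLumiOpto replicate 1 lowest, and the groups overlapped, since ADC/cmLumiOpto replicate 2 lay above saline replicate 1. The log2 fold change was -1.39 (standard error, SE, 0.75; edgeR QL adjusted p = 0.308). It was -0.18 without saline replicate 2 and -2.68 without ADC/cmLumiOpto replicate 2. Without the expression filter, edgeR gave Chil3 an adjusted p of 3.68e-09, within a range up to 0.936 over the alternatives, and 8.84% of the 25563 genes then tested were called. Its paralogue Chil4 had 0, 0, 0 and 2 counts.

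Ear1 (ENSMUSG00000072601, chromosome 14 at 44056222-44112974) had 26, 19, 73 and 115 counts, or 1.63, 1.28, 4.14 and 5.61 CPM. Both treated samples were above both saline samples. The log2 fold change was 1.74 (SE 0.42) and the adjusted p 0.123 in the edgeR QL test. The call depended on the test: the adjusted p was 0.0159 in edgeR's exact test, which called 3.96% of genes as higher, and 0.0308 in DESeq2, which called 4.28% of 13537 genes with an adjusted p as higher. It was 0.00842 without the expression filter, and over all settings it lay between 0.00842 and 0.440. Whichever sample was left out, the log2 fold change of Ear1 stayed from 1.50 to 1.94.

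Ear2 (ENSMUSG00000072596, chromosome 14 at 44340111-44340991) was at 6.44, 6.07, 10.4 and 9.27 CPM, from 103, 90, 184 and 190 counts. Both treated samples were again the higher ones, with a log2 fold change of 0.65 (SE 0.28, edgeR QL adjusted p = 0.228). Longer genes had lower log2 fold changes across the table (Spearman's rho -0.34 over genes, which are not replicates), and with this trend removed the value was 0.25 for Ear2 and 1.35 for Ear1. When the counts of both genes were summed, because they share 50-base though not 100-base windows, the sums were 129, 109, 257 and 305. The summed log2 fold change was 0.93 (SE 0.25, edgeR QL adjusted p = 0.126). Ear6, Ear14 and Ear10, the last being the closest to Ear2 in sequence, had 0 counts in all 4 samples, which allows up to 0.146 to 0.202 CPM, depending on the sample. Eosinophils make ribonucleases of this family too. None of the eosinophil genes Prg2, Prg3, Epx, Ccr3 and Il5ra had more than 3 counts in any sample, with Prg3 and Il5ra at 0 in all samples and a summed level of 0.0674 to 0.250 CPM.

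**Figure D2:**
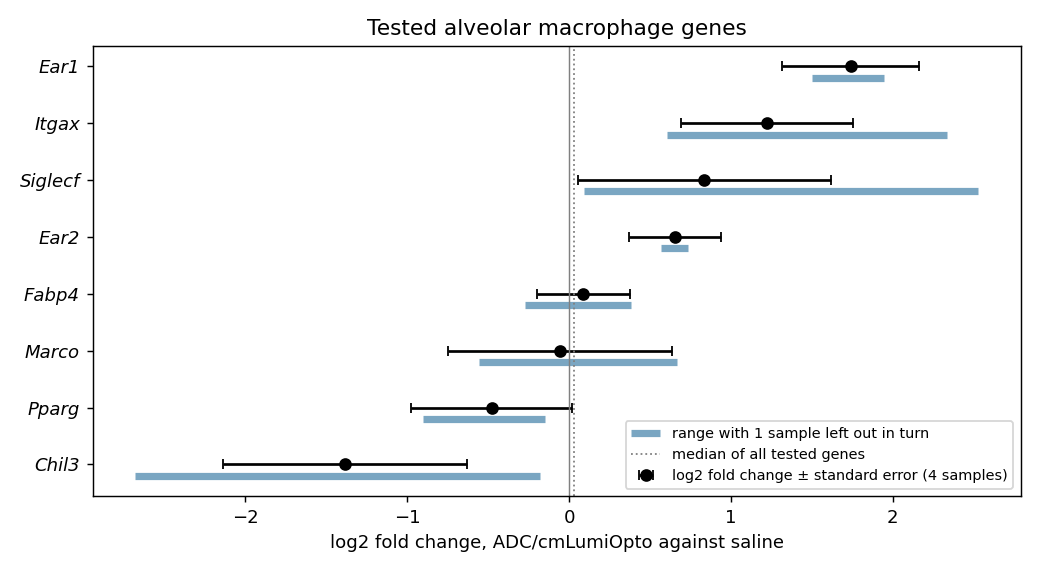
Log2 fold changes of the 8 tested members, ADC/cmLumiOpto against saline, are plotted as points with their standard errors from edgeR over 4 samples, and the blue bars span the values with each sample left out in turn. The dotted line is the median of all tested genes, 0.028. Ear1 and Ear2 have the shortest blue bars (1.50 to 1.94 and 0.57 to 0.73), whereas those of Chil3, Siglecf and Itgax are long and those of Marco and Fabp4 cross 0.

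Among the surface molecules, Itgax (ENSMUSG00000030789, chromosome 7 at 127728719-127749829), the integrin chain CD11c of alveolar macrophages and dendritic cells, was at 38.6 and 11.5 CPM in the saline samples and at 72.5 and 44.9 CPM in the treated samples. Both treated samples lay above both saline samples, and saline replicate 2, with 171 counts, lay far below the other 3, with 618, 1279 and 920. The log2 fold change was 1.22 (SE 0.53, edgeR QL adjusted p = 0.228). Leaving out saline replicate 1, so that only the low sample stood for the group, gave 2.33, and leaving out saline replicate 2 gave 0.61. Itgax was called without the expression filter (edgeR, adjusted p = 5.28e-06), where 8.84% of the 25563 genes tested were called. In DESeq2 its adjusted p was 0.375.

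Dendritic cell genes, in their summed level, had the same order over the samples. Clec9a, a receptor of cross-presenting dendritic cells, was at 2.69, 0.404, 8.61 and 6.97 CPM. The summed level of the 7 dendritic cell genes was 26.7 and 17.0 CPM with saline and 43.4 and 32.5 CPM with treatment, and none of the 7 was at 0 in all samples. Of the 6 tested, 3 (Clec9a, Batf3 and Flt3) were higher at an unadjusted p under 0.05 in edgeR, where 11% of all tested genes were. In the other 3, Zbtb46, Xcr1 and Ccr7, the groups overlapped. Zbtb46, a transcription factor gene, was at 14.1, 13.3, 9.86 and 13.7 CPM, with a log2 fold change of -0.22. The list had a median log2 fold change of 1.39. Ptprc, the pan-leukocyte antigen CD45, was at 69.9, 47.9, 105 and 174 CPM. The part of dendritic cells and of all leukocytes in the Itgax values was not tested.

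Siglecf (ENSMUSG00000039013, chromosome 7 at 43000765-43008955), the sialic acid-binding lectin used to sort alveolar macrophages and eosinophils, had 30, 5, 43 and 32 counts, or 1.88, 0.337, 2.44 and 1.56 CPM. The groups overlapped, and saline replicate 2 was far below the other samples. Its log2 fold change was 0.84 (SE 0.78, edgeR QL adjusted p = 0.550), 0.092 without saline replicate 2 and 2.53 without saline replicate 1. Marco (ENSMUSG00000026390, chromosome 1 at 120402267-120432753), a scavenger receptor for bacteria and particles, had 6, 13, 9 and 14 counts. These counts overlapped, and the log2 fold change of -0.055 (SE 0.69, edgeR QL adjusted p = 0.972) changed sign with a sample left out, between -0.56 and 0.66. No change of Marco was detectable in these samples, and counting error and the spread between samples were not separated.

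Pparg and the fatty acid-binding proteins stand for the lipid program. Pparg (ENSMUSG00000000440, chromosome 6 at 115337912-115467360), the nuclear receptor that sets alveolar macrophage identity, had 32, 41, 38 and 26 counts, or 2.00, 2.76, 2.15 and 1.27 CPM. The groups overlapped, with a log2 fold change of -0.48 (SE 0.50, edgeR QL adjusted p = 0.591) that was -0.23 without saline replicate 2. Fabp4 (ENSMUSG00000062515, chromosome 3 at 10269148-10273636), a lipid chaperone that PPAR-gamma induces, was at 21.8, 31.6, 22.2 and 34.6 CPM, with the lower and the higher value of one group close to those of the other. Its log2 fold change was 0.088 (SE 0.29, edgeR QL adjusted p = 0.881), and it was -0.17 without saline replicate 1, 0.38 without saline replicate 2 and -0.27 without ADC/cmLumiOpto replicate 2.

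Fabp4 is also a gene of capillary endothelium and of fat. The summed level of 9 capillary endothelium genes was 612 and 487 CPM with saline and 627 and 849 CPM with treatment, with none of them at 0. Gpihbp1, which anchors lipoprotein lipase on capillaries, was at 33.2, 24.5, 59.3 and 97.2 CPM, and Cldn5, an endothelial tight junction gene, at 50.8, 33.8, 79.7 and 139 CPM. They were the genes of the list with the smallest p. Of the 9, 5 were higher in both treated samples, where 28.1% of all tested genes were. The other 4 overlapped as Fabp4 did, and the median log2 fold change was 0.36. The 6 adipocyte genes reached at most 27 counts in a sample, Lep was at 0 in all samples, and Adipoq, a defining marker, had 1, 0, 0 and 0 counts. The part of capillary endothelium in the Fabp4 values was not tested.

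Fabp1 (ENSMUSG00000054422, chromosome 6 at 71176811-71182007), the liver-type fatty acid-binding protein that alveolar macrophages also make, had 0, 0, 6 and 0 counts. Krt79 (ENSMUSG00000061397, chromosome 15 at 101837767-101848759), a keratin found in alveolar macrophage signatures, had 2, 1, 10 and 0 counts. In both genes the counts came mainly from ADC/cmLumiOpto replicate 1, while the other treated sample had none. No fold is given for either in any part, because no saline count was above the floor of 3. Of the 10 members, 5 had at most 43 counts in every sample: Marco, Siglecf, Pparg, Fabp1 and Krt79.

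Per kilobase of the gene length listed with the counts, Chil3 was the most abundant member, at 113 CPM per kilobase as the mean of the 4 samples (25.5 to 256). Ear2 followed at 11.2 (8.44 to 14.5), Itgax at 8.72 (2.40 to 15.1), Fabp4 at 6.14 (4.86 to 7.70) and Ear1 at 4.33 (1.75 to 7.68). Pparg at 0.693, Siglecf at 0.556, Marco at 0.317, Fabp1 at 0.154 and Krt79 at 0.0399 made up the low end. Neighbors in this order overlapped in their ranges over samples, except Chil3 with Ear2 and Ear1 with Pparg. The place of Fabp4 depended on the length used: with its longest coding transcript of 896 bases in place of the listed 4489, its level was 30.7 CPM per kilobase, second after Chil3 and overlapping with it. Chil3 made up 61.3, 88.5, 26.6 and 62.4% of the summed CPM of the 10 members, so that the sum, at 188, 473, 157 and 260 CPM, mostly followed this gene.

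**Figure D3:**
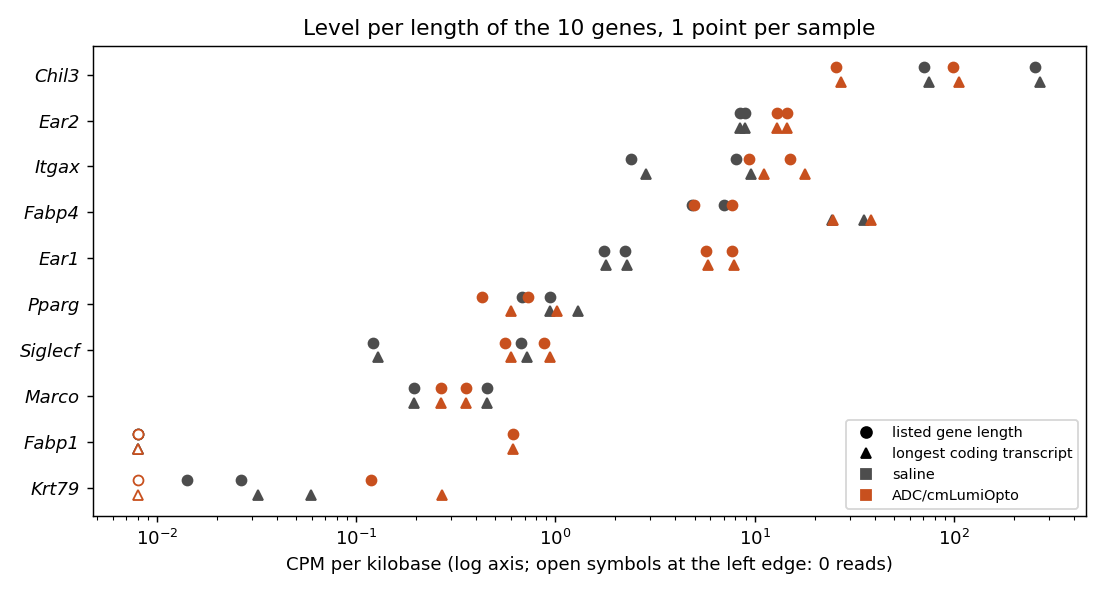
The level of each member is plotted as CPM per kilobase on a log axis, 1 symbol per sample, grey for saline and orange for ADC/cmLumiOpto. Circles use the listed gene length and triangles the longest coding transcript, and open symbols at the left edge are samples with 0 reads. Chil3 lies highest, Ear1 is separated from Pparg below it, and Fabp4 moves farthest between the symbols, from 6.14 to 30.7 in the mean, followed by Krt79, from 0.0399 to 0.0905.

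The other genes of the lineage were described from lists of identity regulators, lipid handling and further alveolar macrophage markers, none of whose genes had an adjusted p under 0.05 in edgeR. Of 15 identity regulators, all tested, 1 was higher and 4 lower at an unadjusted p under 0.05, where 11% and 12.2% of all tested genes were, with a median log2 fold change of -0.073. The higher one was Spi1, which encodes PU.1, at 69.9, 52.1, 83.2 and 151 CPM (log2 fold change 0.94, SE 0.31, edgeR QL adjusted p = 0.155). Bhlhe41 and Bhlhe40, transcription factors that maintain the self-renewal and identity of alveolar macrophages, were lower in both treated samples. Bhlhe41 was at 86.1, 75.6, 39.8 and 40.2 CPM (log2 fold change -1.02, SE 0.16) and Bhlhe40 at 231, 218, 87.2 and 143 CPM (-0.96, SE 0.25). The TGF-beta receptor Tgfbr2 was at 309, 333, 223 and 214 CPM (-0.55, SE 0.15). The adjusted p values of Bhlhe41, Bhlhe40 and Tgfbr2 were 0.116, 0.123 and 0.127 in the edgeR QL test. The part of cells other than alveolar macrophages in the values of these regulators was not tested.

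Of 12 lipid handling genes, 11 were tested, and 6 were higher and 0 lower at an unadjusted p under 0.05, where 11% and 12.2% of all tested genes were, with a median log2 fold change of 0.69. Angptl4, a PPAR target and inhibitor of lipoprotein lipase, was at 13.8, 8.22, 31.2 and 29.9 CPM (log2 fold change 1.47). Nr1h3, the oxysterol receptor LXR-alpha, was at 4.94, 2.22, 10.9 and 10.9 CPM (1.60). Cd36, a fatty acid transporter of macrophages and capillary endothelium, was at 46.3, 12.5, 87.8 and 161 CPM (2.08). In the same list Abca1 and Olr1 were lower in both treated samples (-0.45 and -0.15), and Lipa and Soat1 overlapped. The adjusted p values of Angptl4, Nr1h3 and Cd36, which were named for having the smallest p, were 0.116, 0.124 and 0.134 in the edgeR QL test.

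Of 12 further markers, 9 were tested, with a median log2 fold change of 0.65. Of these, 3 were higher and 2 lower at an unadjusted p under 0.05 in edgeR, where 11% and 12.2% of all tested genes were. Car4, a carbonic anhydrase of alveolar macrophages and of a class of lung capillaries, was at 7.56, 7.21, 25.1 and 39.5 CPM (log2 fold change 2.13, SE 0.28). Ctsk, the protease cathepsin K, was at 10.9, 6.81, 22.7 and 17.6 CPM (1.18, SE 0.31). Siglec1, the macrophage receptor CD169, was lower in both treated samples, at 56.1, 45.0, 20.2 and 14.3 CPM (-1.55, SE 0.24). So was Mrc1, the other gene lower at an unadjusted p under 0.05, at 212, 392, 135 and 171 CPM (-0.98, SE 0.30). The adjusted p values were 0.116 for Car4, 0.124 for Ctsk, 0.116 for Siglec1 and 0.145 for Mrc1 in the edgeR QL test. These markers lay in both directions, and the point estimates of Ear1 and Chil3 did as well.

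General macrophage genes held 0 called genes. Of 12 pan-macrophage genes, 10 had a log2 fold change above 0 (52.0% of all tested genes did), 6 were higher in both treated samples (28.1% of all) and 2, Tyrobp and Lyz2, were higher at an unadjusted p under 0.05 (11% of all), with a median of 0.36. Tyrobp, the adaptor DAP12, was at 73.1, 60.6, 127 and 147 CPM (log2 fold change 1.04), and Lyz2, lysozyme, at 1687, 1128, 4299 and 2447 CPM (1.26), with edgeR adjusted p values of 0.116 and 0.123. Lyz2 is also made by alveolar type 2 cells. Fcgr1, the Fc receptor CD64, had a log2 fold change of 0.92 with overlapping groups. Relative to this list, the mean log2 CPM of the 8 tested members was -4.34 and -4.00 with saline and -4.45 and -4.01 with treatment. The difference of -0.064 was smaller than the pooled standard deviation of 0.279 within groups.

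Interstitial and recruited macrophage genes lay in both directions, with 6 of 14 higher and 4 lower in both treated samples, where 28.1% and 28.8% of all tested genes were, and a median log2 fold change of 0.46. Gpnmb and Trem2, genes of lipid-laden macrophages, had log2 fold changes of 1.64 and 1.06 (edgeR, adjusted p = 0.116 for each). Cd163, a hemoglobin scavenger receptor of interstitial and perivascular macrophages, was at 13.1, 54.1, 3.40 and 8.49 CPM (-2.49, edgeR, adjusted p = 0.135). Cd163 had the same sample order as Chil3 at both ends, highest in saline replicate 2 and lowest in ADC/cmLumiOpto replicate 1.

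Neutrophil genes, in their summed level, had another order than Chil3, with the highest level in ADC/cmLumiOpto replicate 2. The summed level of the 10 neutrophil genes was 1380 and 617 CPM with saline and 1339 and 9010 CPM with treatment. Of the 10, 8 were higher and 0 lower at an unadjusted p under 0.05 in edgeR, where 11% and 12.2% of all tested genes were. Only 4 of the 10 were higher in both treated samples, where 28.1% of all tested genes were, and in the other 6 the groups overlapped. S100a9, a calcium-binding protein of neutrophils, was at 505, 210.4, 562 and 3815 CPM, and the neutrophil antigen Ly6g at 5.44, 1.42, 7.71 and 24.2 CPM. Camp, a granule peptide, had a log2 fold change of 2.45 (edgeR, adjusted p = 0.123). Mmp8, at 31.7, 70.4, 18.2 and 194 CPM, was lowest in ADC/cmLumiOpto replicate 1 and higher in saline replicate 2 than in saline replicate 1, as Chil3 was. The other genes of the list were lowest in saline replicate 2. The part of neutrophils and their precursors, which also make Chil3, in the Chil3 values was not tested.

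**Figure D4:**
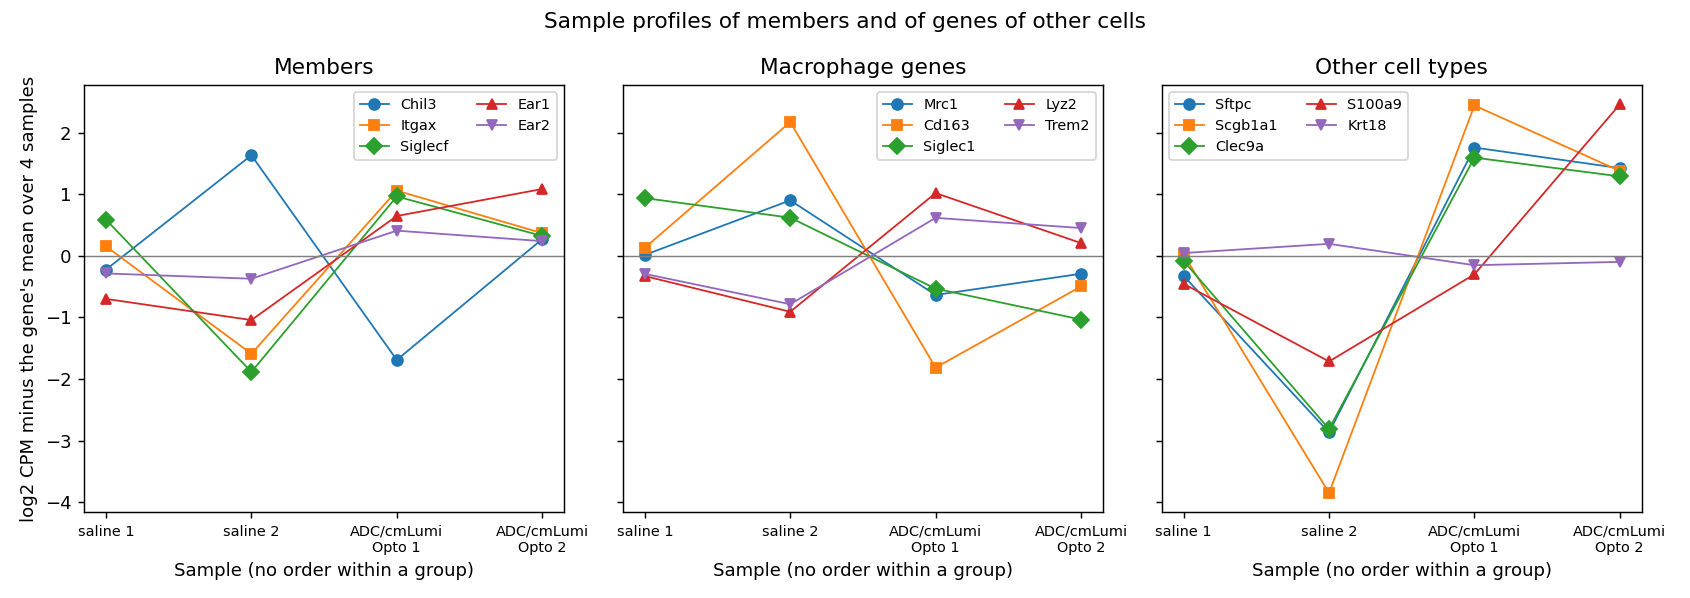
Log2 CPM of single genes, minus the mean of the gene over the 4 samples, is plotted by sample for members (left), macrophage genes (middle) and genes of other cells (right), and the lines only link the points of a gene. Chil3 has its highest point in saline replicate 2 (1.64), as Cd163 does (2.18), while Itgax (-1.59), Siglecf (-1.89), Sftpc (-2.87), Scgb1a1 (-3.85) and Clec9a (-2.81) have their lowest points there, and S100a9 has its highest point in ADC/cmLumiOpto replicate 2 (2.47).

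Most epithelial genes of normal lung were also at higher levels in the treated samples. All 7 alveolar type 1 and airway genes were higher in both treated samples, where 28.1% of all tested genes were. Their median log2 fold change was 2.30 and their summed level 1324, 147, 6712 and 3479 CPM. Of 8 alveolar type 2 genes, 7 were higher in both treated samples and 1 lower, against 28.1% and 28.8% of all tested genes. The lower gene, Abca3, was at 146, 128, 113 and 121 CPM (log2 fold change -0.23, edgeR QL adjusted p = 0.438). The type 2 list had a median of 1.99 and a summed level of 1713, 459, 5782 and 4994 CPM, and none of the genes of either list was at 0. Their leading genes were Hopx, Ager and Scgb3a2 (log2 fold changes 2.30, 2.13 and 3.79) and Napsa, Sftpd and Lamp3 (1.69, 2.40 and 2.38), with edgeR adjusted p values between 0.116 and 0.123. Against the mean of the alveolar type 2 genes, the mean log2 CPM of the members differed by -1.70 between the treated and the saline samples (pooled standard deviation 0.793), and against Ptprc the difference was -0.84 (0.380). In both the treated samples lay below the saline samples, with no test made. The carcinoma list had a median of -0.051, in which Cd276, the target of the ADC, was at 109, 99.96, 63.7 and 71.4 CPM (log2 fold change -0.63, edgeR, adjusted p = 0.123), and Krt18 and Cdh1 had log2 fold changes of -0.25 and 0.36. The part of the share of normal lung in each sample in the values of the members was not tested.

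Of 9 paralogues of members, which include Ear6 and Ear10 from the markers above, 4 were tested and all 4 had a log2 fold change above 0. Chil1, a chitinase-like protein made by epithelium and macrophages, was at 67.3, 16.9, 162 and 196 CPM, a log2 fold change of 2.09 (edgeR, adjusted p = 0.127) opposite in sign to that of Chil3. Fabp5, the epidermal fatty acid-binding protein, was at 52.9, 37.6, 70.4 and 48.7 CPM with overlapping groups, and the integrin chain Itgal, or CD11a, had a log2 fold change of 0.63.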

How the data were processed

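For each of 56748 genes the authors deposited a read count per sample, whole and not normalized, beside a listed gene length in bases. The methods of the study name HISAT2 and GRCm38, and the submitters' processing notes name HISAT2 and mm39. The counting program, the read length and the use of strand are not given in the sources used here. Start and end of 0 of the 10 members equaled those of GENCODE vM21 (GRCm38), so gene positions are given as listed with the counts, on a build that the table does not name, and promoter positions are on GRCm38.p6.

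The count table was fitted with edgeR 4.0.16 (R 4.3.3) using filterByExpr with its defaults (minimum count 10, minimum total 15), TMM, estimateDisp, glmQLFit and glmQLFTest over all genes, Benjamini-Hochberg adjustment over the 15320 tested and a prior count of 0.125. CPM used TMM-scaled library sizes. Mean log2 CPM over lists and the centered values behind the closest profiles used a prior count of 2. The centered log2 CPM plotted for single genes used no prior count. The standard error is the log2 fold change divided by the square root of F. Alternatives were DESeq2 1.42.0, the exact test, other scalings and filters, a lowess correction (span 0.3) on gene length, a replicate block and each sample left out in turn. Level by coding transcript length was added after the data were seen. An exact permutation of 2 against 2 samples has no two-sided p below 0.333.

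The members and all gene lists were chosen with earlier results of these data known, so no test over a list was made. Named genes were all members, Ear6, Ear10, Ear14, Chil4 and Fabp5, the 3 tested genes with the smallest p and any genes at 0 in each list, Ptprc and Cd276, and the 5 genes of closest profile. Sftpc, Scgb1a1, Mrc1, Adipoq, Spi1, Abca1, Olr1, Lipa, Soat1, Abca3, Mmp8, Zbtb46, Xcr1, Ccr7 and the other eosinophil genes were named after their values were seen.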

Additional observations from a re-analysis of the deposited data

How the results depend on the processing

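The direction of Chil3, Siglecf, Ear1, Ear2, Pparg and Itgax was kept under all alternatives that gave the gene a value. Siglecf had none when at least 10 counts were required in every sample, and Ear1 and Ear2 had none of their own when summed. The count of called genes, 0 in edgeR's quasi-likelihood test (3553 at an unadjusted p under 0.05), was 1353 in DESeq2, 1170 in the exact test, 2259 without the filter and 0 to 218 with a sample left out, with 218 without saline replicate 1, 10 without saline replicate 2 and 5 without ADC/cmLumiOpto replicate 1. The count of called members, 0, became 1 in DESeq2 and in the exact test (Ear1), 3 without the filter (Chil3, Ear1 and Itgax) and 0 to 1 with a sample left out (Itgax without saline replicate 1). A lone sample was then assumed to vary like the other group. With the replicate number as a block, 607 of the 15320 tested genes were called, 308 as higher and 299 as lower. Among them were 2 members (edgeR, adjusted p = 0.0136 for Chil3 and 0.0282 for Itgax). Same-numbered samples share only a number, and their deviations correlated at 0.0985 over genes.

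The median log2 fold change of the members, 0.37, was 0.46 with upper-quartile normalization, 0.74 without the filter, which adds Fabp1 and Krt79, whose fitted values rest on the prior count and counts at or near 0 and are no estimate, 0.14 with the trend on gene length removed and 0.26 to 0.49 with a sample left out. These settings moved the median of all genes from 0.028 to 0.112, 0.102 and -0.069. Relative to the pan-macrophage genes the members differed by -0.064, by -0.28 to 0.16 with a sample left out, by -0.84 relative to Ptprc and by -1.70 relative to the alveolar type 2 genes. Marco reversed to 0.028 with upper-quartile normalization, 0.66 without saline replicate 2 and 0.13 without ADC/cmLumiOpto replicate 1, within -0.56 to 0.66 with a sample left out, and Fabp4 to -0.17 without saline replicate 1 and -0.27 without ADC/cmLumiOpto replicate 2, within -0.27 to 0.38. The cause was not tested, and counting error in Marco, Siglecf and Pparg, with at most 43 counts a sample, was not separated from the spread between samples.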

Other observations

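The tested genes outside all lists whose centered log2 CPM over the 4 samples was nearest to the mean of the 8 tested members were Hyi, Mief2, Mfsd3, Rpl7a-ps5 and Dclre1c, with root mean square differences between 0.0119 and 0.0217. The mean of the members itself was -0.16 and -0.22 with saline and 0.12 and 0.27 with treatment, so both treated samples lay above both saline samples. Single members differed from this mean, with Chil3 highest and Itgax lowest in saline replicate 2. Hyi, the nearest, was at 12.0, 11.6, 14.5 and 16.5 CPM. This likeness is over 4 samples only.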
